A study of Mus musculus with 8 samples.

Results

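The genes described here are the glucose transporter gene Slc2a1 and 9 genes of glycolytic enzymes, Hk2, Gpi1, Aldoa, Tpi1, Pgk1, Pgam1, Eno1, Pkm and Ldha. They were picked by name, and each of the 10 symbols matched 1 of the 34745 Ensembl genes listed in the files. RNA-seq was run on 8 tumours of B16F10 cells, a pigmented mouse melanoma line, that had been kept in culture before subcutaneous injection into C57BL/6J hosts. The host mice ate a high cholesterol diet (HCD, 4 samples) or a normal diet (ND, 4 samples). Every tumour came from the same cell line in the same strain, with no allele or drug set apart between the groups. The make-up and length of the diets and the age of the hosts are not stated in the labels. Nor do the labels say that each sample came from its own mouse, so p-values below rest on a spread among libraries that may be technical. A tumour sample holds host cells beside melanoma cells, and fewer cells of one type cannot be told apart from less RNA per cell.

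Glycolysis splits glucose into pyruvate in the cytosol and yields ATP without oxygen. Slc2a1 encodes GLUT1, which lets glucose into the cell, and the enzymes then act one after another until lactate dehydrogenase turns pyruvate into lactate. Many tumours, melanoma among them, run this pathway fast even where oxygen is present. The hypoxia-inducible factors (HIF) and MYC are known to drive transcription of most of these genes. The comparison asks whether tumours of HCD mice carried more or less of these transcripts than tumours of ND mice.

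None of the 10 genes passed the test between the diets. In the fitted fold change of HCD over ND, 4 of them stood at -12.7% to -8.94% (Slc2a1, Tpi1, Aldoa and Pgk1). The other 6 (Hk2, Gpi1, Pgam1, Eno1, Pkm and Ldha) stood between -2.86% and 2.28%. Adjusted p-values ran from 0.263 to 0.989 (edgeR's quasi-likelihood test over 13186 genes, Benjamini-Hochberg adjustment, threshold 0.05). Of all genes tested, 24 passed, which is 0.182%, with 0.114% lower and 0.0683% higher. DESeq2 called none of the 10 genes either. The outermost bounds of the 10 intervals at 95% were -24.6% (Tpi1) and 14.2% (Hk2). With 4 samples a group, the differences inside a gene's own interval could not be told apart. A gene that did not pass may still differ.

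Total counts ran from 16137885 to 17722093 per library in HCD and from 14599222 to 17637202 in ND. The 10 genes together held 2.29% to 2.57% of a library's counts in HCD and 2.40% to 2.52% in ND (two-sided exact permutation p = 0.4). HCD libraries had counts on 16285 to 16728 genes and ND libraries on 16745 to 18224, with ND 2 to ND 4 at the top (exact permutation p = 0.0286, the lowest value possible for groups of 4). ND 2 also stood apart on the first principal component of all tested genes. The values below are given for every library, and the fold changes are given again from a model that sets ND 2 to ND 4 apart. Summed markers of melanocytes, Pmel and Dct among them, came to 27994 to 31608 CPM in HCD and 29085 to 30519 CPM in ND (CPM, counts scaled to a common library size, by the total count alone for marker sums and also by TMM factors for single genes), so both groups carried abundant melanocyte transcripts, as the label says. Of these 10 markers 7 were higher and 3 lower in HCD, and 1 passed as higher, against 0.0683% of all genes tested. It was Mitf, at 453 ± 51.3 CPM in HCD and 251 ± 34.3 CPM in ND. Its log2 fold change was 0.85 (adjusted p = 0.0459, edgeR's quasi-likelihood test). The call was lost without HCD 4, without ND 4 and with the replicate number as a block, where 0 genes passed as higher.

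Per length of gene, the 10 transcripts spanned a wide range of levels and stood in nearly the same order on both diets. Pkm, pyruvate kinase, was highest, at 2437 ± 92.2 FPKM in HCD and 2345 ± 46.6 FPKM in ND (SD, n = 4 each here and throughout). It ranked at place 17 among the 13186 tested genes by mean FPKM, which are fragments per kilobase of gene, scaled to the library total, as deposited. Tpi1 followed at 1313 ± 195 FPKM in HCD and 1451 ± 91.5 FPKM in ND, and these top ranks did not overlap with each other or with the next gene in either group. Pgk1, Ldha, Pgam1 and Aldoa formed a middle tier of 502 to 633 FPKM in HCD and 529 to 675 FPKM in ND. Ranges of genes next to each other in this tier overlapped, so their order is only partly resolved. Pgk1 lay above Pgam1 and Aldoa in both groups, with a lowest value of 581 FPKM in HCD and 621 FPKM in ND. The highest Pgam1 and Aldoa values were 579 and 570 FPKM in HCD, and 548 and 600 FPKM in ND. In ND the lowest Ldha value, 550 FPKM, also lay just above the highest Pgam1 value. Eno1 and Gpi1 came next, at 202 ± 8.76 and 181 ± 17 FPKM in HCD and 199.6 ± 10.7 and 181 ± 9.61 FPKM in ND, and overlapped too. Hk2 and Slc2a1 were lowest, at 52.0 ± 3.06 and 44.4 ± 3.26 FPKM in HCD and 50.9 ± 6.42 and 49.3 ± 2.55 FPKM in ND. These lowest ranks did not overlap in HCD and overlapped in ND. Slc2a1 still ranked at place 842 of the 13186 genes. Slc2a1 and Hk2 were thus the least abundant transcripts of the set on both diets. Hk1, a hexokinase outside the set, stood higher than Hk2, at 94.6 ± 1.87 FPKM in HCD and 102 ± 6.64 FPKM in ND.

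**Figure D1:**
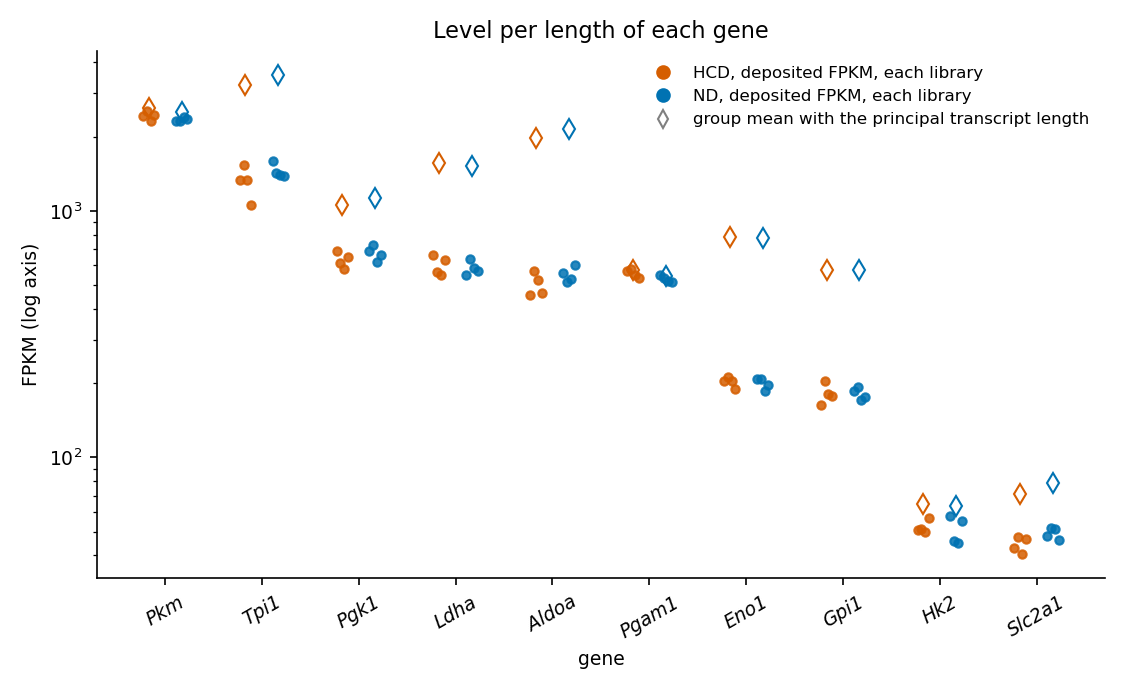
Level of each gene per length on a log axis. Filled points are deposited FPKM of the 4 HCD libraries (left of each pair) and the 4 ND libraries (right), and open diamonds are group means recomputed with the length of 1 principal transcript. Pkm and Tpi1 lie above the rest and Hk2 and Slc2a1 below, while with the principal transcript length Tpi1 lies above Pkm.

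The order of levels depends on the length used. The length behind the deposited FPKM, recovered from each gene's count and FPKM, was 1.03 times (Pgam1) to 3.91 times (Aldoa) the length of the principal transcript in GENCODE M21. It was 5910 against 1511 bases for Aldoa, 7863 against 2027 bases for Eno1 and 9152 against 2884 bases for Gpi1. With the principal length, Tpi1 stood first at 3226 in HCD and 3565 in ND, above Pkm at 2604 in HCD and 2506 in ND on the same scale. Aldoa came next, at 1965 in HCD and 2151 in ND. Hk2 and Slc2a1 stayed the 2 lowest. A gene's length is the same in all libraries, so it does not enter the comparison of diets.

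Promoter windows of the genes are shown here because the level of these transcripts is known to depend on HIF binding at short sites with the core ACGTG or GCGTG. RefSeq windows on GRCm38.p6, the assembly also called mm10, run from 250 bases before to 50 bases after a transcript start. All 10 symbols matched, with 16 windows. Capitals mark ACGTG or GCGTG on either strand, read as CACGT or CACGC on the strand printed, and ACGTG also lies inside CACGTG. Slc2a1 is shown as the gene with the lowest fold change, Tpi1 as the one that varied most among HCD tumours, Pgk1 as the X-linked member and Ldha for its many matches and a fold change near 0. Their windows are chr4:119108495-119108794 on the plus strand, chr6:124814109-124814408 on the minus strand, chrX:106186850-106187149 on the plus strand and chr7:46845554-46845853 on the plus strand.
Slc2a1: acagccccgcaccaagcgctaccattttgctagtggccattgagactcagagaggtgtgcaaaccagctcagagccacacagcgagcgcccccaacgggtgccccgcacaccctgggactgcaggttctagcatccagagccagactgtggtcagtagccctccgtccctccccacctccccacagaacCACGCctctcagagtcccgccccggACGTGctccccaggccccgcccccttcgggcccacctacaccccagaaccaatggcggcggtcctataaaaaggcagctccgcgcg
Tpi1: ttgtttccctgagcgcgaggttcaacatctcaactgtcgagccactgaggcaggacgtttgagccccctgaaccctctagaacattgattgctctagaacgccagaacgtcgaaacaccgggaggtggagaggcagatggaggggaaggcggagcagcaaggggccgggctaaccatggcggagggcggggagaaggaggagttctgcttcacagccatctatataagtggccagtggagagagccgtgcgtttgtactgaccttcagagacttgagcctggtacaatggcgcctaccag
Pgk1: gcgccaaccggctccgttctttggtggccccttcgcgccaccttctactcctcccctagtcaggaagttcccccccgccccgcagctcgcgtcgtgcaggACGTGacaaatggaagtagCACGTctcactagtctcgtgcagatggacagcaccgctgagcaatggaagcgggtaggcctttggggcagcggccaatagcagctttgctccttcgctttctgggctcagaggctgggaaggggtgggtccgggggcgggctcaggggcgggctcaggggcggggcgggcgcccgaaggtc
Ldha: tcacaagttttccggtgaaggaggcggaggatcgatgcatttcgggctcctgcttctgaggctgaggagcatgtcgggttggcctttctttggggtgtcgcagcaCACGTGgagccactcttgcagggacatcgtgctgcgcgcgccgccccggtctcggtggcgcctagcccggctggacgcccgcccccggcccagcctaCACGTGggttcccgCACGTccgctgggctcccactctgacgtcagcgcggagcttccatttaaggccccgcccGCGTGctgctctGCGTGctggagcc
The Ldha window held 7 matches, against 2 for Slc2a1, 2 for Pgk1 and 0 for Tpi1. The 7 count each of the 2 CACGTG runs in Ldha once per strand, so fewer stretches are capitalised. In all, 12 of the 16 windows and at least 1 window of 8 of the 10 genes held a match, and Gpi1 and Tpi1 had none. Some windows of Aldoa and of Eno1 overlap each other, so the same match can be counted more than once. Among all 32851 windows of this length, 43.8% held one. That share is per window and does not serve for the count by gene, where a gene can have several windows. Whether the 10 genes hold more matches than other genes was not tested. The printed windows were 57.3% to 67.3% G or C, against a median of 52.7% over all windows. A match is a run of letters and was not tested as a binding site. Whether the number of matches goes with the fold change between diets was not tested.

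Slc2a1 (ENSMUSG00000028645, chromosome 4, 119108711 to 119137983) takes up glucose from outside the cell. It stood at 216, 242, 209 and 246 CPM in HCD 1 to HCD 4, against 253, 275, 273 and 245 CPM in ND 1 to ND 4. Of the HCD tumours, 3 lay below every ND tumour and HCD 4 lay just above the lowest one, ND 4, so the groups overlapped. The log2 fold change was -0.20 (SE 0.0738, 95% interval -0.36 to -0.03, unadjusted p = 0.0237, adjusted p = 0.263), the lowest of the 10. It was the only one of the 10 at an unadjusted p under 0.05, a level reached by 14.7% of all genes tested. Setting ND 2 to ND 4 apart, which rests the contrast on ND 1 alone, gave -0.15.

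Hk2 (ENSMUSG00000000628, chromosome 6, 82725025 to 82774454) encodes a hexokinase that binds mitochondria and traps glucose in the cell as glucose 6-phosphate. Its values were 337, 345, 336 and 389 CPM in HCD 1 to HCD 4, against 398, 321, 315 and 383 CPM in ND 1 to ND 4. HCD 4 stood above the other HCD tumours, and the ND tumours split into a higher pair, ND 1 and ND 4, and a lower pair, ND 2 and ND 3. The diets overlapped fully, and edgeR's quasi-likelihood test gave a log2 fold change of -0.01 (SE 0.091, unadjusted p = 0.907).

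Gpi1 (ENSMUSG00000036427, chromosome 7, 34201330 to 34230336) encodes the isomerase that turns glucose 6-phosphate into fructose 6-phosphate. It stood at 1444, 1832, 1639 and 1627 CPM in HCD 1 to HCD 4, against 1712, 1791, 1597 and 1633 CPM in ND 1 to ND 4. Both the lowest value, HCD 1, and the highest, HCD 2, were HCD tumours, and the log2 fold change was -0.04 (SE 0.0773, adjusted p = 0.855).

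Aldoa (ENSMUSG00000030695, chromosome 7, 126795234 to 126800751), the aldolase that cleaves the sugar, stood at 2606, 3305, 3049 and 2745 CPM in HCD 1 to HCD 4, against 3325, 3095, 3197 and 3593 CPM in ND 1 to ND 4. HCD 1, HCD 3 and HCD 4 lay below every ND tumour, while HCD 2 lay above 2 of them. The log2 fold change was -0.17 (SE 0.0842, 95% interval -0.36 to 0.01, adjusted p = 0.377). Tpi1 (ENSMUSG00000023456, chromosome 6, 124810586 to 124814296) encodes triose phosphate isomerase, which interconverts the triose phosphates that aldolase makes. Its values were 5117, 5923, 5188 and 4186 CPM in HCD 1 to HCD 4, against 6319.7, 5739, 5669 and 5559 CPM in ND 1 to ND 4. HCD 2 lay among the ND tumours, the other 3 HCD tumours lay below all of them, and HCD 4 was lowest. The log2 fold change was -0.19 (SE 0.0979, 95% interval -0.41 to 0.03, adjusted p = 0.407). Leaving out HCD 4 gave -0.11, and setting ND 2 to ND 4 apart, so that ND 1 as the highest ND tumour stood alone, gave -0.31.

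Pgk1 (ENSMUSG00000062070, chromosome X, 106187100 to 106203699), phosphoglycerate kinase, catalyses the first step of the pathway that makes ATP. It stood at 2031, 1845, 1754 and 1989 CPM in HCD 1 to HCD 4, against 2107, 2266, 1942 and 2051 CPM in ND 1 to ND 4. HCD 2 and HCD 3 lay below every ND tumour, and HCD 1 and HCD 4 lay above ND 3. The log2 fold change was -0.14 (SE 0.0705, 95% interval -0.29 to 0.02, adjusted p = 0.414).

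Pgam1 (ENSMUSG00000011752, chromosome 19, 41911923 to 41918660), phosphoglycerate mutase, and Eno1 (ENSMUSG00000063524, chromosome 4, 150236721 to 150248879), the main non-muscle enolase, carry out the next steps. Pgam1 varied little in both groups, at 1006, 1039.8, 998 and 982 CPM in HCD 1 to HCD 4, against 1012, 995, 972 and 956 CPM in ND 1 to ND 4. Its log2 fold change was 0.03 (SE 0.0516, adjusted p = 0.826). Eno1 stood at 1554, 1628, 1585 and 1503 CPM in HCD 1 to HCD 4, against 1654, 1666, 1498 and 1561 CPM in ND 1 to ND 4. All 4 HCD values fell inside the ND range, and the estimate was -0.02 on the log2 scale (SE 0.0584, adjusted p = 0.892).

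Pkm (ENSMUSG00000032294, chromosome 9, 59656368 to 59679375) encodes the pyruvate kinase that makes the second ATP of the pathway. Its gene count adds up the M1 and M2 splice forms, which cannot be told apart in these files. It stood at 6116, 6488, 5962 and 6405 CPM in HCD 1 to HCD 4, against 6068, 6114, 6414 and 6187 CPM in ND 1 to ND 4. The spread was small and the groups overlapped, and the log2 estimate was 0.01 (SE 0.0553, 95% interval -0.11 to 0.13, adjusted p = 0.957). Ldha (ENSMUSG00000063229, chromosome 7, 46841475 to 46855627) encodes the lactate dehydrogenase subunit that predominates where lactate is made. Its values were 2933, 2552, 2496 and 2909.5 CPM in HCD 1 to HCD 4, against 2547, 2981, 2748 and 2648 CPM in ND 1 to ND 4. HCD 1 and HCD 4 stood near the highest ND tumour and HCD 2 and HCD 3 near the lowest, and the log2 difference was -0.00447 (SE 0.0769, 95% interval -0.18 to 0.17, adjusted p = 0.989).

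**Figure D2:**
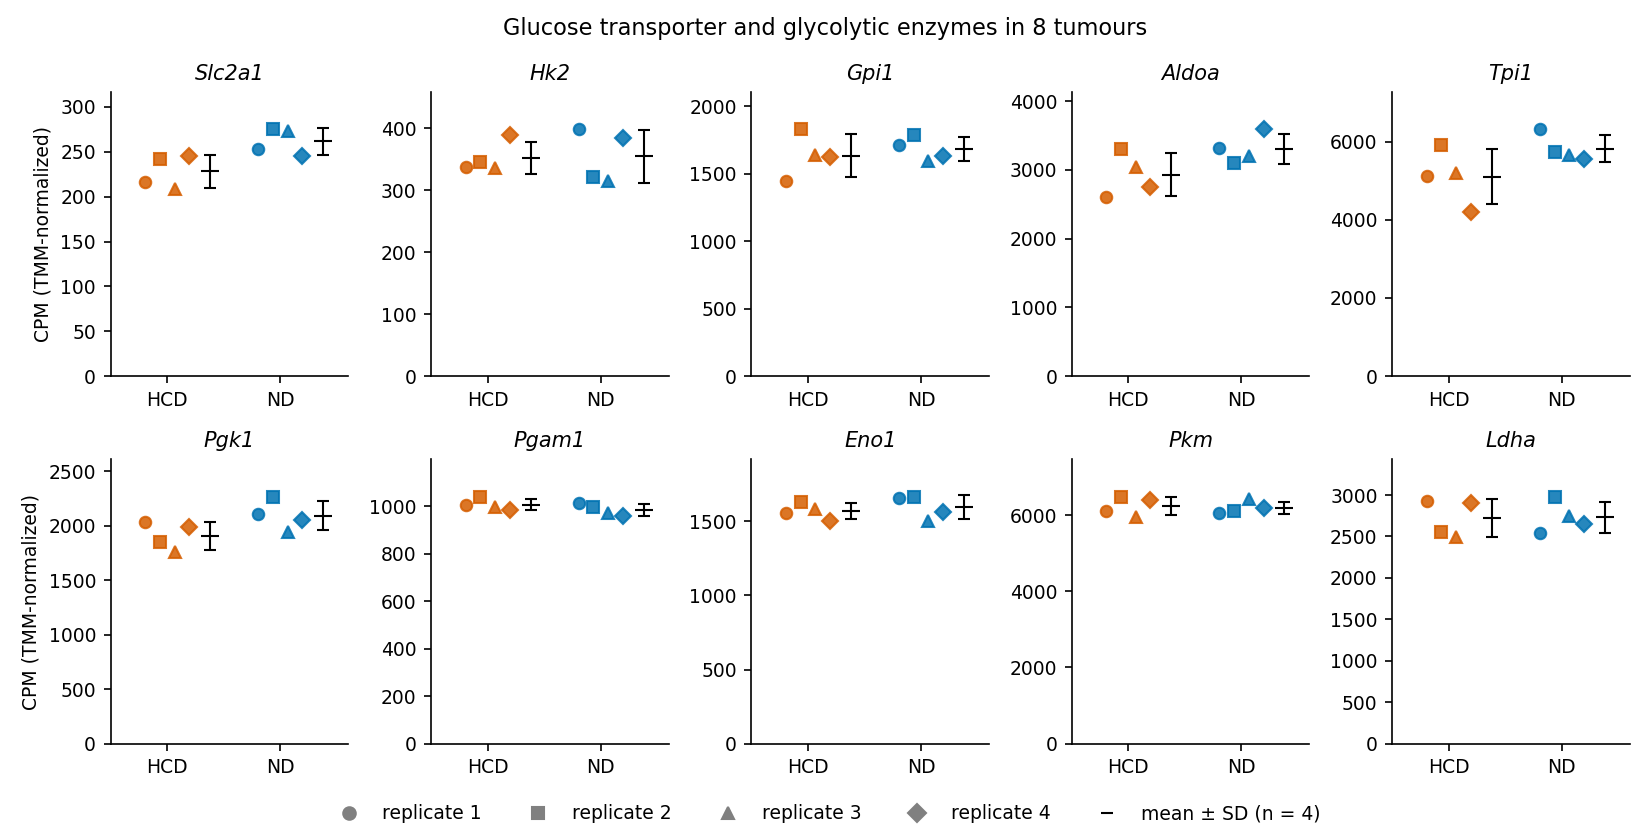
CPM (TMM-normalized) of each gene in the 4 HCD tumours (left, orange) and the 4 ND tumours (right, blue), with the replicate number as the marker and the mean ± SD in black. Axes start at 0, and for all 10 genes the groups overlap; Slc2a1, Aldoa and Tpi1 each have 3 HCD tumours below every ND tumour.

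Across the list, 8 of the 10 genes had a log2 fold change under 0, against 48.9% of all genes tested. The median was -0.03, against 0.00494 over all genes tested. The sign of the genes near 0 depends on the scaling: on log2(FPKM + 1), which has no TMM factor, 5 genes were lower, with Hk2, Eno1 and Ldha on the other side of 0, while the median of all genes moved to 0.04. Slc2a1, Aldoa, Tpi1 and Pgk1 were lower in all 20 other fits and scalings tried, and none of the 10 genes passed in any of them, with adjusted p-values of at least 0.232. In the model that sets ND 2 to ND 4 apart, and so rests on ND 1 alone, the median was -0.11. Hk2 stood at -0.18, Gpi1 at -0.07, Aldoa at -0.18, Pgk1 at -0.15, Pgam1 at -0.01, Eno1 at -0.08, Pkm at 0.04 and Ldha at 0.10 on the log2 scale there. The sign of Pgam1 and Ldha was the opposite of that in the fit of diet alone. The groups were fully separated for 0 of the 10 genes, against 9.67% of all genes tested (4.73% lower and 4.94% higher).

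The genes did not move as a block from tumour to tumour. Measured as log2 CPM minus the gene's mean over the 8 libraries, the average over the 10 genes ran from -0.08 (HCD 3) to 0.03 (HCD 2) in HCD and from -0.00285 (ND 3) to 0.06 (ND 1) in ND. ND 1 had 8 genes above their mean and HCD 3 had 2. HCD 4 had the lowest Tpi1, at -0.37, and a high Ldha and Hk2, at 0.10 and 0.15. HCD 1 combined the lowest Aldoa and Gpi1, at -0.25 and -0.20, with a Ldha of 0.11. HCD 2 went the other way, with Gpi1, Tpi1 and Aldoa at 0.15, 0.13 and 0.09 and Ldha and Pgk1 at -0.09 and -0.11. Coefficients of variation within a group ran from 2.45% (Pgam1) to 14% (Tpi1) in HCD and from 2.48% (Pkm) to 12% (Hk2) in ND.

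**Figure D3:**
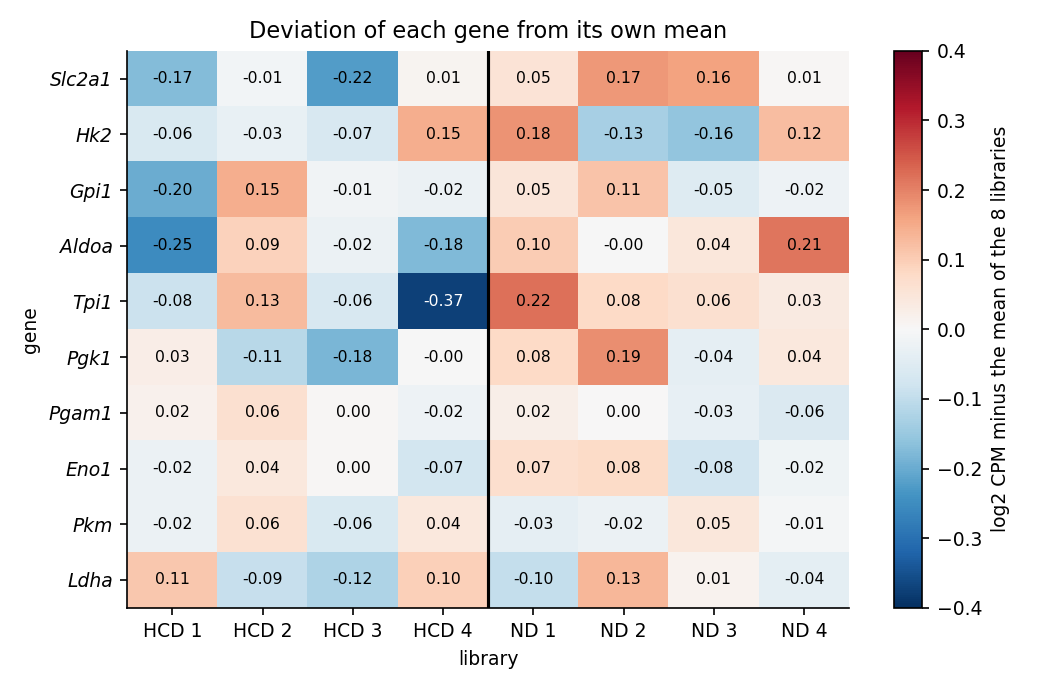
Log2 CPM of each gene in each library minus the gene's mean over the 8 libraries, with HCD left of the black line and ND right of it, red above and blue below the mean. Tpi1 in HCD 4 (-0.37) and Aldoa in HCD 1 (-0.25) are the lowest cells, in libraries where Ldha lies above its mean.

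By the smallest root mean square difference from the average profile of the 10 genes over the 8 libraries, among 13015 genes outside the lists, the most alike were Pacs2, Thoc5, Tpm3-rs7, Ube2z and Fto. Their differences were 0.0286 to 0.0305 log2 units. The 10 genes themselves lay 0.0466 to 0.138 from their own average, and the average profile had an SD of 0.051, so the profile is nearly flat. A flat profile resembles any gene that varies little.

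Some of these genes have near-identical copies with counts of their own, and whether those reads came from the copy or the parent gene was not tested. Eno1b, annotated as protein coding and 99.48% identical to Eno1 over 1736 aligned bases, held 17.8% to 19.9% of the summed Eno1 and Eno1b counts in HCD and 17.6% to 20.8% in ND. The processed pseudogene Pgam1-ps2, 100% identical to Pgam1 over 765 bases, and a smaller copy held 9.44% to 9.85% in HCD and 9.47% to 11% in ND. For Gpi1, Gm1840, 98.66% identical over 1046 bases, held 9.37% to 9.77% in HCD and 10% to 11.5% in ND. Gm1840 itself stood at 174 ± 17.4 CPM in HCD and 208 ± 16.3 CPM in ND (log2 fold change -0.26, SE 0.0863, adjusted p = 0.213). Copies of Tpi1, Pgk1 and Ldha held at most 2.47%, and Slc2a1, Hk2, Aldoa and Pkm had none among annotated pseudogenes. Protein-coding copies other than Eno1b were not counted. Levels of Eno1, Pgam1 and Gpi1 are therefore uncertain, since reads of one copy can be given to another. With the copies added to the parent gene, the log2 fold change of Gpi1 was -0.06, where its own row gave -0.04. The other 9 genes moved by less, and none passed.

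Isozymes of the same step were compared as shares of FPKM within each library, and none of the 6 families tested passed between diets, with overlapping ranges in each. A share depends on the lengths behind the deposited FPKM, which exceeded the principal transcript unevenly. They were 4589 against 1766 bases for Ldha and 6858 against 5513 bases for Hk2. The percentages are therefore uncertain as levels, while each gene's length was the same in all libraries. The smallest exact permutation p for groups of 4 is 0.0286, so a difference in 1 family alone could not have passed after adjustment over 6. Hk2 made up 34.9 ± 1.41% of the summed Hk1, Hk2 and Hk3 FPKM in HCD and 32.8 ± 3.13% in ND (difference 2.08 points, two-sided exact permutation p = 0.286, 0.471 adjusted over 6 families). Hk1, the housekeeping hexokinase, was the more abundant one. Ldha made up 86.8%, 83.8%, 83.1% and 86.4% of Ldha plus Ldhb in HCD 1 to HCD 4, against 82.7%, 83.8%, 84.9% and 84.2% in ND 1 to ND 4 (means 85 ± 1.86% in HCD and 83.9 ± 0.931% in ND, exact permutation p = 0.314). Aldoa made up 97 ± 0.63% of Aldoa plus Aldoc in HCD and 96.7 ± 0.668% in ND, and Eno1 95.4 ± 0.193% of the 3 enolases in HCD and 95.1 ± 0.356% in ND. Slc2a1 made up 97.3 ± 0.504% of Slc2a1 plus Slc2a3, a high-affinity neuronal and leukocyte transporter, in HCD and 97.3 ± 0.182% in ND. Pgam1 held 99.97 ± 0.0319% in HCD and 99.92 ± 0.0471% in ND beside the muscle form Pgam2. Adjusted exact permutation p-values of these families were 0.471 to 0.943. Pklr, the liver and red cell pyruvate kinase, had a count of 0 in all 8 libraries.

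The other steps of glycolysis were taken from a list of 26 genes, 19 of which passed the filter on low counts. None passed the test in either direction, with 1 higher and 5 lower at an unadjusted p under 0.05 (7.21% and 7.49% of all genes tested), and DESeq2 called none of those named in this paragraph. The median log2 fold change was -0.14. Pfkp, the platelet-type phosphofructokinase, stood at 512 ± 30.5 CPM in HCD and 592 ± 45.3 CPM in ND (log2 fold change -0.21, SE 0.0727, adjusted p = 0.223). Gapdh, the dehydrogenase between Tpi1 and Pgk1, stood at 1677 ± 174 CPM in HCD and 1928 ± 97.5 CPM in ND (-0.20, SE 0.079, adjusted p = 0.283). Hk1 stood at 1154 ± 17.9 CPM in HCD and 1285 ± 83.3 CPM in ND (-0.15, SE 0.0602, adjusted p = 0.279), with all HCD tumours below all ND tumours. Among the 19 genes the groups did not overlap for 2 lower and 1 higher, against 4.73% and 4.94% of all genes tested. Pfkl and Ldhb had log2 fold changes of -0.08 and -0.14, and Aldoc -0.30, none of them past the test. The lactate exporters Slc16a1 and Slc16a3 stood at 0.15 and -0.10.

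**Figure D4:**
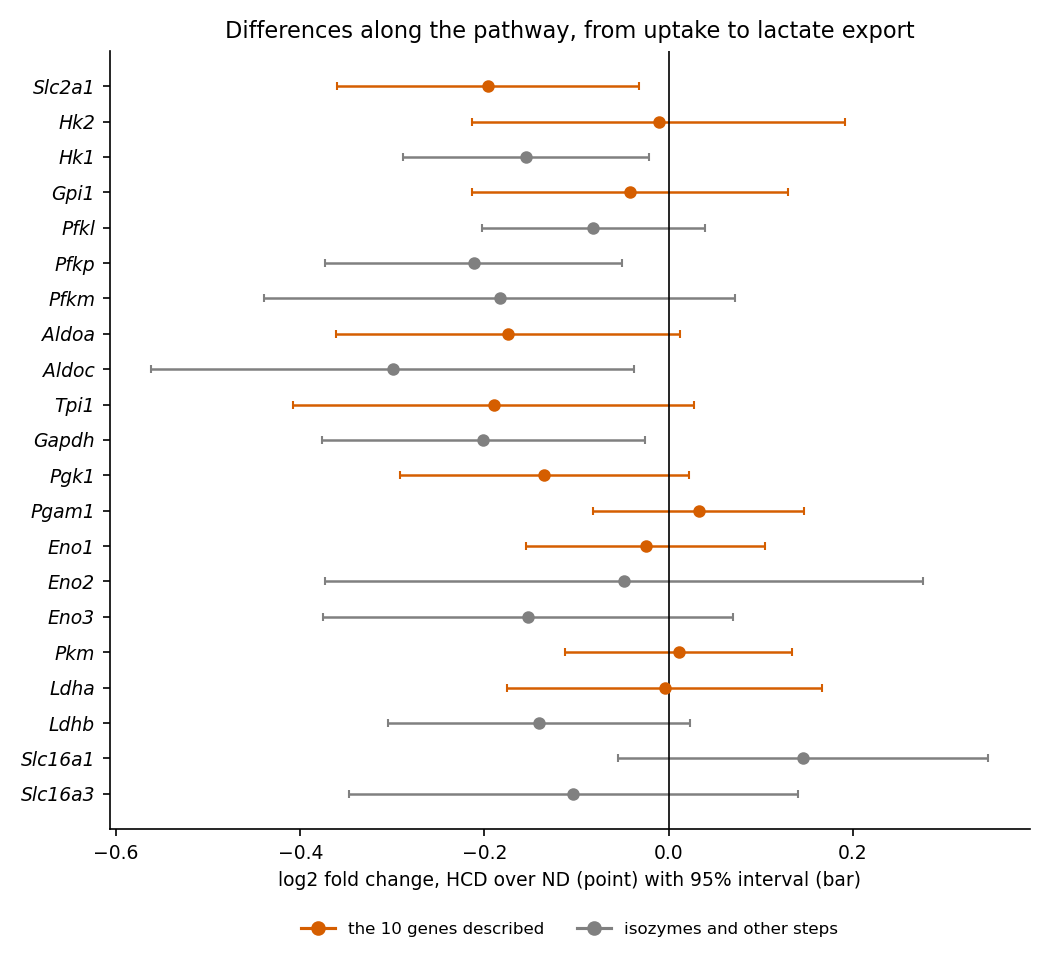
Log2 fold change of HCD over ND with its 95% interval, in pathway order from glucose uptake at the top to lactate export at the bottom. The 10 genes described are orange and other steps and isozymes grey; most points lie left of 0 and none passed the test after adjustment.

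In branches off glycolysis no gene passed edgeR's quasi-likelihood test either. In the pentose phosphate pathway, 8 of 9 genes were tested (3 higher, 5 lower, median -0.04), and Tkt, transketolase, stood at 683 ± 47 CPM in HCD and 783 ± 40.9 CPM in ND (log2 fold change -0.20, adjusted p = 0.223). Among 13 tested genes of glycogen and gluconeogenesis 9 were lower (median -0.10). Pgm1, which links glycogen to glucose 6-phosphate, stood at 629 ± 53.5 CPM in HCD and 747 ± 21.7 CPM in ND (-0.25, adjusted p = 0.15). Pck2, the mitochondrial PEP carboxykinase, and Pcx, pyruvate carboxylase, had values of -0.34 and -0.36 (adjusted p = 0.115 and 0.131 in edgeR). DESeq2 called both, with an adjusted p = 0.0154 for the log2 fold change of Pck2 and 0.0376 for the log2 fold change of Pcx. Over all its genes DESeq2 called 238 as lower, against 15 in edgeR. Genes of pyruvate dehydrogenase and its kinases had a median of -0.05 over 11 genes, with Pdk1, the HIF target kinase that slows pyruvate oxidation, at -0.21 (adjusted p = 0.329). Transporters of glucose, lactate and pyruvate had a median of 0.00908 over 12 tested genes, with Bsg, the chaperone of the lactate exporters, at 0.15 and Slc2a6 at -0.34 (adjusted p = 0.34 and 0.248).

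Hypoxia-inducible genes outside glycolysis had a median log2 fold change of -0.21 over 21 genes, with 19 lower, 2 of which passed, and 11 at an unadjusted p under 0.05, beside -0.03, 8 of 10 and 1 for the genes described here. Over all genes tested, 48.9% were lower, 0.114% passed as lower and 7.49% were lower at an unadjusted p under 0.05. The lists were chosen with earlier results of these data known, so these counts cannot serve as a test of a list. The difference between the lists was not tested. Ndrg1, a stress and differentiation gene, fell to 229, 260.2, 233 and 233 CPM in HCD 1 to HCD 4, against 379.6, 336, 346 and 355 CPM in ND 1 to ND 4 (log2 fold change -0.57, SE 0.0658, adjusted p = 0.0225). Kdm3a, a histone demethylase, fell to 167 ± 14.7 CPM in HCD, against 233 ± 4.64 CPM in ND (-0.48, SE 0.0718, adjusted p = 0.0459). The call of Ndrg1 was lost without HCD 1, HCD 3, HCD 4, ND 3 or ND 4, and that of Kdm3a without any 1 library. Adjusted p then reached 0.0926 for the log2 fold change of Ndrg1 and 0.138 for the log2 fold change of Kdm3a, while the estimates stayed between -0.61 and -0.54 for Ndrg1 and between -0.52 and -0.42 for Kdm3a. Both calls were also lost in the model that sets ND 2 to ND 4 apart, with estimates of -0.67 and -0.45 (adjusted p = 0.0767 and 0.339). Vegfa, the angiogenic factor, stood at 70.2 ± 6.28 CPM in HCD and 87.2 ± 8.18 CPM in ND (-0.31, adjusted p = 0.164). Transcripts of the regulators Hif1a and Myc had log2 fold changes of 0.00282 (95% interval -0.15 to 0.15) and 0.09 (-0.17 to 0.35). Arnt, the partner of the HIF alpha subunits, was at -0.19 (adjusted p = 0.342), and Ppargc1a and Mlx, a coactivator of mitochondrial genes and a glucose-sensing factor's partner, at 0.40 and 0.31 (adjusted p = 0.147 and 0.21).

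**Figure D5:**
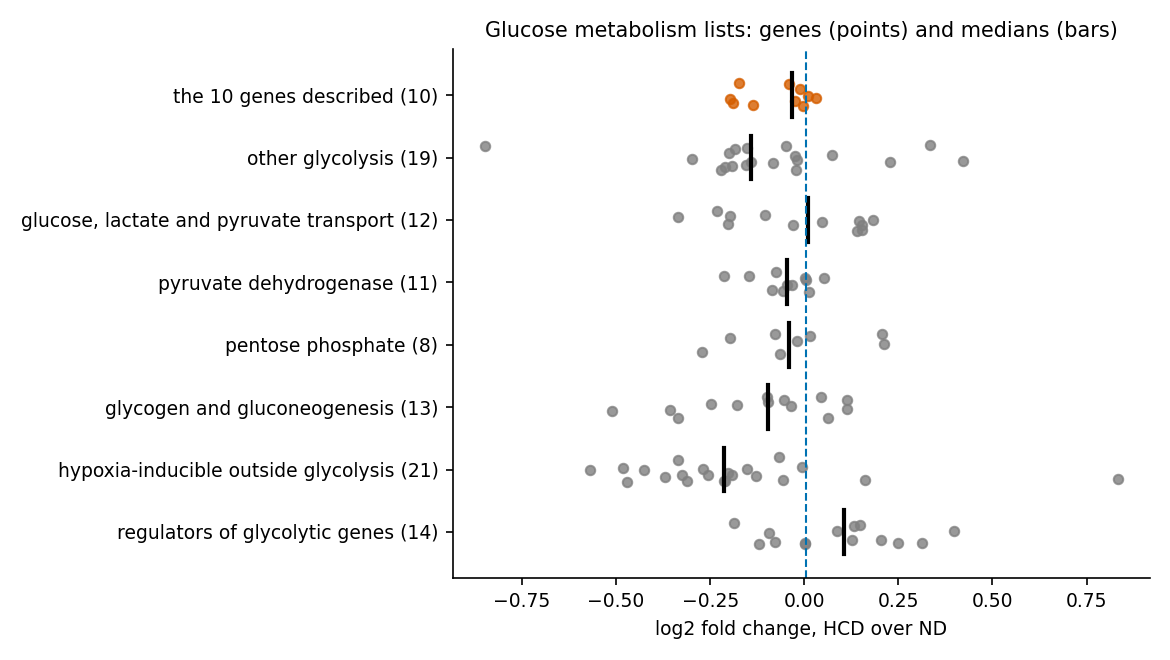
Log2 fold change of HCD over ND for every tested gene of 8 lists, with the number tested in brackets, black bars at list medians and the dashed line at the median of all genes tested. The 10 genes described lie between -0.20 and 0.03, and hypoxia-inducible genes outside glycolysis have the lowest median, -0.21.

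Host cell markers differed between libraries, and their part in the values above was not tested. Macrophage markers summed to 617 to 785 CPM in HCD and 355 to 661 in ND, with 11 of 12 genes higher (exact permutation p = 0.114). Endothelial markers summed to 466 to 509 in HCD and 375 to 474 in ND, with 8 of 10 genes higher (exact permutation p = 0.0857). Fibroblast markers summed to 292 to 491 in HCD and 242 to 465 in ND, with all 8 tested genes higher (exact permutation p = 0.2). Skeletal muscle markers, all 6 tested ones lower, summed to 4.51 to 8.81 in HCD and 5 to 92.6 in ND (exact permutation p = 0.114). Among these sums ND 1 and ND 2 were highest, at 57.5 and 92.6. Eno3, the muscle enolase, stood at 20.1 to 21.1 CPM in the HCD libraries, against 26.5, 23.5, 20.8 and 20.9 CPM in ND 1 to ND 4, and was thus also highest in ND 1 and ND 2. Aldoa, which muscle expresses too, was highest in ND 4 and lowest among ND tumours in ND 2. Red cell markers summed to 112 to 1365 in HCD and 109 to 1136 in ND, with all 7 tested genes higher (exact permutation p = 0.429). Adipocyte markers summed to 9.14 to 44.9 in HCD and 7.53 to 10.9 in ND (exact permutation p = 0.0571). T and NK cell markers summed to 12.8 to 20.4 in HCD and 3.25 to 22.3 in ND, with 6 of 7 tested genes higher (exact permutation p = 0.743). Neutrophil markers summed to 1.86 to 5.25 in HCD and 1.36 to 5.54 in ND with Camp at 0, and keratinocyte markers to at most 0.113 in both groups, with Krt5, Lor and Dsg3 at 0.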

How the data were processed

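Total RNA of 8 tumours was made into paired-end libraries with a TruSeq RNA kit, per the labels' protocols. CASAVA 1.8, TopHat2 2.0.9, HTSeq, edgeR and the build mm10 are named in the submitters' processing notes, with no role; the annotation release, strand setting and filters were not stated there. The authors deposited raw counts per Ensembl gene, per the file headers. Beside them the authors deposited FPKM, and the values are counts over gene length and library total. Gene names came from GENCODE M21 (34267 of 34745 matched).

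The diet named in each title set the groups. Counts were tested with edgeR 4.0.16 (R 4.3.3): TMM factors, expression filter (minimum count 10, minimum total 15), quasi-likelihood F-test on 8 libraries with diet as the only term, on 13186 genes. Standard errors were derived from the log2 fold change and its F statistic. Log2 CPM used a prior count of 2. Isozyme shares used FPKM and exact permutation tests; a family needed a partner with a mean of 0.1 FPKM. Copies were sought with blastn 2.17.0 (90% identity over 200 bases), and only annotated pseudogenes and Eno1b were kept. The alternatives included DESeq2 1.42.0 and limma 3.58.1; adding copies to the parent gene and the principal transcript length were chosen after seeing the data. The fit was tested on simulated counts. Named genes were the 10 genes, isozyme partners, preset pathway genes, the 3 smallest p-values of each of 7 pathway lists and the 5 most alike genes. The genes and lists were chosen with earlier results of these data known. Tpi1 shares 34 exon bases with Spsb2, Aldoa 25 with Fam57b, Gpi1 741 with Gm26762 (a count of 1 over 8 libraries) and Slc2a1 105 with Gm12868 (a count of 0), whose reads cannot be told apart if counting ignored strand. In each pair of replicates the counts varied 14.5 to 37.6 times as much as counting error allows, so none was counted as a rerun of the same library. This measure cannot tell separate libraries of 1 tumour from libraries of separate tumours.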

Additional observations from a re-analysis of the deposited data

Results flagged for a closer look

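In 110 groups of 4 libraries checked, 8 held a library far from the other 3, with a gap above Dixon's 95% critical value, and chance gives about 1 in 20. Among the 10 genes only Hk2 had one, HCD 4, at 389 CPM against 336 to 345 CPM in the other HCD libraries. In HCD, Slc2a6 was low in HCD 2 (16.5 against 19.9 to 20.3 CPM), H6pd low in HCD 1 (31.6 against 39.9 to 41.3 CPM), Arnt low in HCD 1 (40.7 against 47.1 to 48.3 CPM) and Ndrg1 high in HCD 2 (260.2 against 229 to 233 CPM). In ND, Mlx was low in ND 2 (30.5 against 38.1 to 38.6 CPM), Aldoc high in ND 2 (128 against 92.3 to 98.3 CPM) and Slc2a3 high in ND 1 (16.0 against 15.1 to 15.2 CPM).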

How the results depend on the processing

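None of the 10 genes passed in any of 20 alternatives. Genes passing over all genes tested were 9 higher and 15 lower, and became 38 and 55 with no filter, 24 and 26 with robust dispersion, 4 and 1 with ND 2 to ND 4 set apart, 191 and 238 with DESeq2 (2049 at an unadjusted p under 0.05), 17 and 2 with limma on log2(FPKM + 1), 22 and 4 on log2(FPKM + 0.1) and 3 and 1 with no FPKM filter. Leaving out 1 library gave 0 to 6 higher and 0 to 6 lower, with 0 of both without HCD 4 (1516 at an unadjusted p under 0.05) and without ND 4 (1603). Lower genes among the 10, 8 in the fit reported, were 5 on each log2(FPKM) scale and 6 to 9 with 1 library left out. Those at an unadjusted p under 0.05, 1 in that fit, were 0 with ND 2 to ND 4 set apart, 0 in filtered FPKM on either pseudocount, and 0 to 3 with 1 library left out (0 without HCD 1 or HCD 3, 3 without HCD 2). Of the other genes named, Pck2, Pcx, P4ha2 and Ppargc1a passed in DESeq2, and Ppargc1a also without ND 2. No isozyme share passed under any alternative, and with 1 library left out the exact permutation p cannot go below 0.0571. The cause of these shifts was not tested.

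Replicate numbers are not stated to pair the tumours. Same-numbered libraries correlated by -0.0676 to 0.107 in their deviations from group means, and none correlated best with its own number. With the number as a replicate block 0 higher and 0 lower genes passed in edgeR (1634 at an unadjusted p under 0.05), and the log2 fold change of Ndrg1 had an adjusted p = 0.166. With 4 tumours a group, fold changes inside the same interval could not be told apart.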

Other observations

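The FPKM ratio of Ldha to Tpi1, picked with another from 6 ratios after the values were seen, was 0.493, 0.371, 0.414 and 0.598 in HCD 1 to HCD 4, against 0.347, 0.447, 0.417 and 0.41 in ND 1 to ND 4. Ldha and Tpi1 thus stood in different proportion in single tumours. The ratio was highest in HCD 4, which also had the lowest Tpi1 of all libraries. The FPKM ratio of Pkm to Ldha was 3.68, 4.49, 4.22 and 3.89 in HCD 1 to HCD 4, against 4.21, 3.62, 4.12 and 4.13 in ND 1 to ND 4.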
